A study of Homo sapiens with 8 samples.

Results

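The interferon-stimulated genes examined here are 50 genes listed by name as transcripts that classically rise when cells receive type I interferon, and their rows were found by gene symbol in a table of 63129 genes. All 50 had a row, 24 had a mean of at least 1 RPKM over 8 libraries and were tested, and the other 26 lay under that level. RPKM counts reads per kilobase and divides them by the size of the library, so levels can be compared between genes. The libraries were made from LP-1, an established human multiple myeloma cell line, and the labels name no interferon treatment. In the first experiment 2 libraries came from cells given the solvent DMSO and 2 from cells given 2.5 μM SGC-CBP30, an inhibitor of the bromodomains of CBP and EP300. In the second, 2 came from DMSO and 2 from 0.25 μM CPI203, an inhibitor of the BET family bromodomains. All treatments lasted 6 hr, and the labels number the replicates 1 and 2 in each group. The labels do not state which DMSO pair goes with which compound. The pairs, and with them the split into a first and a second experiment, were assigned by the naming series of the library names. The comparison with DMSO asks which transcripts change soon after each bromodomain family is blocked. A single cell line, 1 dose of each compound and 1 time point limit what these groups can stand for.

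Type I interferon binds a receptor made of IFNAR1 and IFNAR2, whose kinases JAK1 and TYK2 phosphorylate STAT proteins, STAT2 among them. STAT2 joins IRF9 in the complex ISGF3, which binds the interferon-stimulated response element in the promoters of its target genes. The products sense viral RNA, block translation, degrade RNA, attach the ubiquitin-like protein ISG15 to other proteins and restrict virus assembly. Many of these genes also keep a basal level without added interferon.

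Each compound was compared with its own DMSO pair by limma on log2(RPKM + 0.1), fitted to all 14732 genes that reached a mean of 1 RPKM, and fold changes were taken there, where changes of low genes come out too small. A gene was called when its Benjamini-Hochberg adjusted p over all genes tested was under 0.05 and its level moved 1.5-fold or more. The smallest two-sided p of an exact permutation test with 2 against 2 libraries is 0.333, so each p given rests on limma's model of the spread between these replicates. The files hold no read counts. From whole-read steps in low values the depth was estimated at 26100000 to 50100000 reads per library, and 1 RPKM on a transcript of 2 kb then stands for 52.1 to 100.3 reads. Replicates differed on the log2 scale with an SD of 0.091 to 0.115 among genes above 10 RPKM. Members at lower levels are not covered by these values, and some spread more. In the DMSO pair beside CPI203, OAS1 was at 2.64 and 3.73 RPKM, while PARP14 was at 3.58 and 3.6 RPKM. The 6 plasma cell markers SDC1, CD38, TNFRSF17, XBP1, PRDM1 and MZB1 summed to between 979 and 1060 RPKM in the DMSO libraries. Their sums were 801 and 820 with SGC-CBP30 and 616 and 628 with CPI203. MZB1 and XBP1 weighed most, with means of 421 and 235 RPKM over the 8 libraries. The markers did not all fall. PRDM1 had log2 fold changes of -0.64 with SGC-CBP30 and 0.36 with CPI203 (limma adjusted p = 1.08e-05 and 6.74e-05). For SDC1 they were 0.14 (limma adjusted p = 0.166) and -1.55 (adjusted p = 1.42e-07). CD38, TNFRSF17, XBP1 and MZB1 were lower in value with both compounds. The 4 myeloid markers summed to at most 0.344 RPKM with MPO listed at 0 throughout, and the 2 epithelial markers to at most 0.0546 RPKM with EPCAM listed at 0. In bulk RNA, fewer cells that express a gene and less of its RNA per cell cannot be told apart.

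In DMSO-treated LP-1 cells the members spanned a wide range of basal levels. By the mean over the 4 DMSO libraries, 1 member lay above 100 RPKM, 12 between 10 and 100, 12 between 1 and 10, 17 between 0.1 and 1 and 8 under 0.1 RPKM. ADAR, which edits adenosines in double-stranded RNA, was the highest at 172 to 192 RPKM. BST2, the membrane protein tetherin that holds budding virions at the cell surface, followed at 91.1 to 99.9 RPKM, and these ranges did not overlap. TRIM25, a ubiquitin ligase of the RIG-I pathway, ranged from 45.7 to 48.4 RPKM, SAMD9L from 33.1 to 51.4 and UBE2L6 from 32.0 to 46.6, so these neighbours in the order overlapped. Several members that interferon classically induces strongly were near the bottom. IFIT1 and IFIT2, which bind viral RNA and translation factors, stayed at or under 0.276 RPKM in all 8 libraries, and RSAD2, the antiviral radical enzyme viperin, at or under 0.187 RPKM. OAS3 was listed at 0 in 6 of 8 libraries and IFITM3 in 5 of 8. Just above the cutoff of 1 RPKM stood ISG15, with a mean of 1.04 RPKM over the 8 libraries, and just under it OAS2, with 0.911 RPKM.

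**Figure D1:**
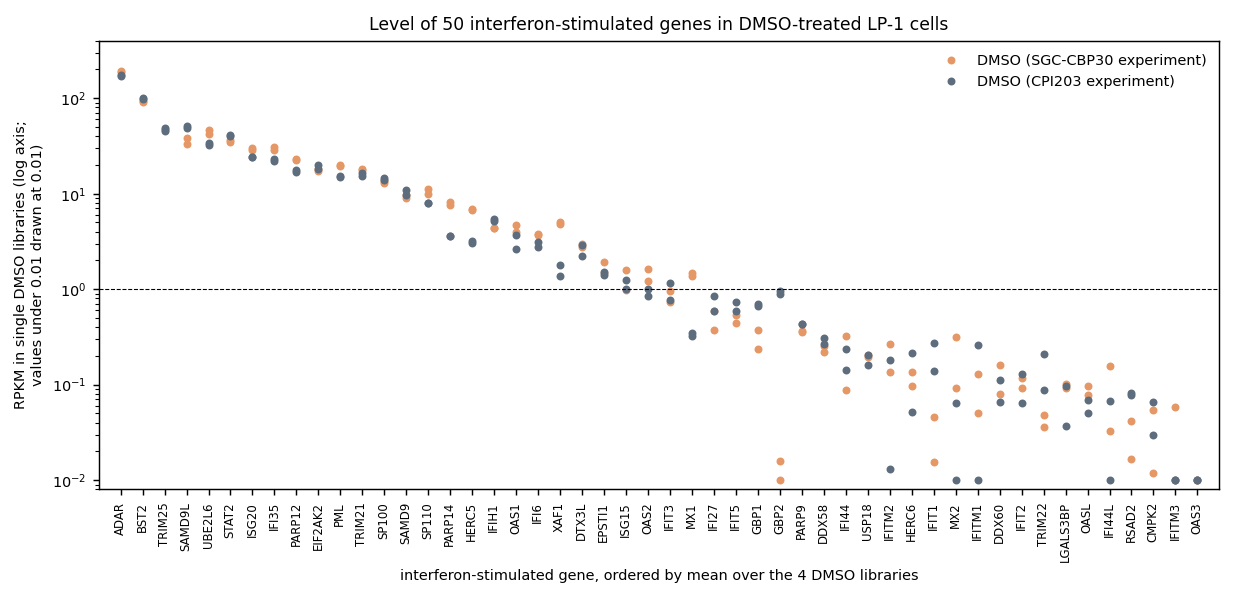
RPKM (log axis) of the 50 interferon-stimulated genes in each of the 4 DMSO libraries, ordered by their mean, with values under 0.01 drawn at 0.01 and a dashed line at 1 RPKM. The levels run from 172 to 192 RPKM for ADAR down to 0.00515 RPKM or less for OAS3. XAF1, PARP14, HERC5, MX1 and GBP2 are among the members that separate the DMSO pairs.

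With SGC-CBP30, 6 of the 24 tested members were called, all lower than in DMSO: XAF1, PARP14, OAS1, HERC5, EPSTI1 and DTX3L. With all 4 DMSO libraries as controls none of the 6 was called, and SAMD9L was called in their place (log2 fold change -0.67, limma adjusted p = 0.0365). Over all genes tested 7.26% were called, 3.47% higher and 3.79% lower. None of the 24 was called higher by limma, and at an unadjusted p under 0.05 with the same fold there were still 0 higher and 6 lower. Without a minimum fold 17 members passed the adjusted p (40.4% of all genes tested), 15 of them lower (14.8%) and 2 higher (25.6%), the latter SP100 and TRIM21. The median log2 fold change of the tested members was -0.31, with 20 lower and 4 higher in value, beside 0.07 over all genes tested.

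With CPI203, 11 of the 24 were called, where 27.8% of all genes tested were called. XAF1, DTX3L, PARP12, EPSTI1, SP110, SAMD9L, IFIH1, EIF2AK2 and SP100 were lower, 9 members against a background of 14.4% called lower. STAT2 and IFI6 were higher, 2 members against 13.4%. Without a minimum fold 17 members passed (64.2% of all genes), 13 lower (33.1%) and 4 higher (31.1%). The median log2 fold change of the 24 was -0.42, beside -0.01 over all genes tested. The median over all genes moved by less than 0.1 under other scalings of the libraries. The levels of all 50 members summed to 661 RPKM in both DMSO libraries beside SGC-CBP30 and to 555 and 569 with that compound, and to 615 and 629 RPKM in the other DMSO pair and 561 and 570 with CPI203. Much of that sum is ADAR and BST2, and in neither experiment did the groups overlap.

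**Figure D2:**
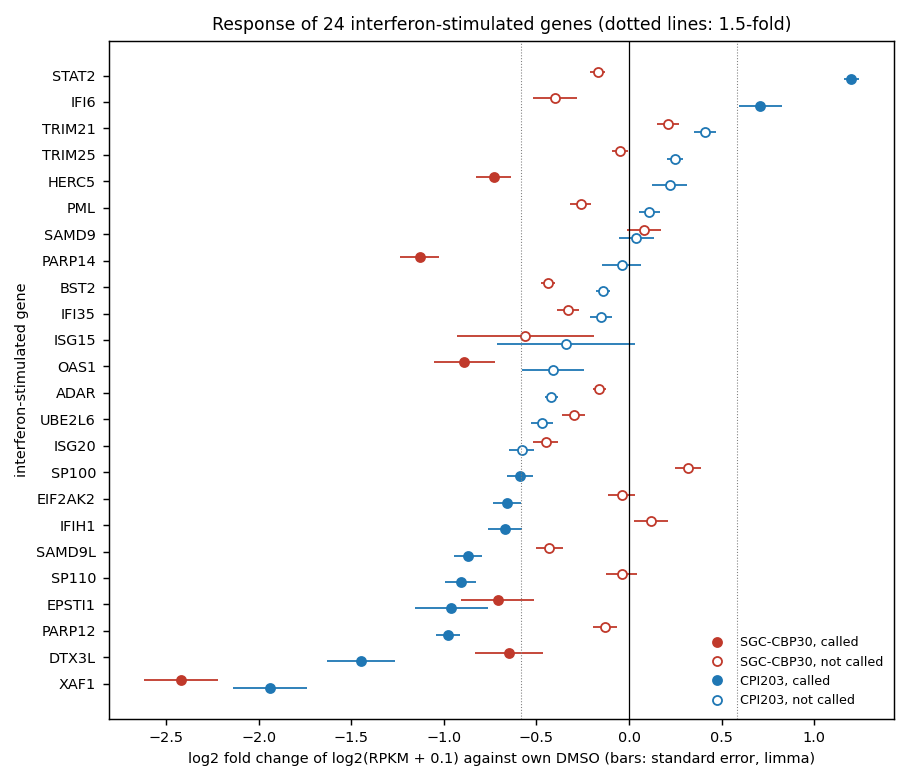
log2 fold change of log2(RPKM + 0.1) of each of the 24 tested members against the DMSO libraries of its own experiment, with SGC-CBP30 in red and CPI203 in blue, standard errors from limma as bars, filled points for called genes and dotted lines at 1.5-fold. XAF1 is lowest with both compounds, at -2.42 and -1.94, and STAT2 stands highest with CPI203, at 1.20, where SGC-CBP30 gave -0.17.

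The members called lower with both compounds were XAF1, DTX3L and EPSTI1, 3 of 24, and 1.62% of all genes tested were called lower with both. XAF1 encodes a protein that binds the caspase inhibitor XIAP, and lies at chr17:6658766-6678966 of hg19. Its levels were 4.86 and 5.09 RPKM in the DMSO pair beside SGC-CBP30 and 0.807 and 0.894 RPKM with SGC-CBP30. In the CPI203 experiment it was at 1.38 and 1.81 RPKM in DMSO and 0.30 and 0.382 RPKM with the compound. Treated and control libraries did not overlap in either experiment, but the control levels of the experiments did not overlap either. The level with SGC-CBP30 was 0.171 of its control and the level with CPI203 0.213 of its own. This gave log2 fold changes of -2.42 (SE 0.198, limma adjusted p = 2.65e-05) and -1.94 (SE 0.198, adjusted p = 1.67e-05). Against the DMSO pair of the CPI203 experiment, an alternative chosen after the data were seen, the log2 fold change with SGC-CBP30 was -0.83, with all 4 DMSO libraries as 1 control group it was -1.62, and the second of these no longer passed the test (limma adjusted p = 0.0726). XAF1 was under 1 RPKM in all treated libraries and passed the filter on low values through its controls.

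DTX3L, a ubiquitin ligase that works in a complex with PARP9, lies at chr3:122283085-122294050 of hg19. It was at 2.95 and 2.76 RPKM in DMSO and 1.74 and 1.83 RPKM with SGC-CBP30, and at 2.23 and 2.88 RPKM in DMSO and 0.745 and 1.00 RPKM with CPI203. Both treated pairs lay under their controls. CPI203 gave a log2 fold change of -1.45 (SE 0.183, limma adjusted p = 7.3e-05). With SGC-CBP30 it was -0.65 (adjusted p = 0.0191), and leaving out any 1 of the 4 libraries of that experiment ended this call, with log2 fold changes of -0.70 to -0.60 and limma adjusted p between 0.0605 and 0.0886. The call also ended without the filter on low values (limma adjusted p = 0.0819), with all 4 DMSO libraries as controls (0.0614) and, at -0.47, with a pseudocount of 1. PARP9 shares 340 bases with DTX3L at their opposing starts, and the counting is not known to use strand, so reads of that stretch cannot be told apart. PARP9 itself was at 0.355 and 0.362 RPKM in DMSO and 0.199 and 0.151 RPKM with SGC-CBP30, under the level that was tested.

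EPSTI1, whose transcript is known to rise with interferon, lies at chr13:43460524-43566407 of hg19. It was at 1.94 and 1.49 RPKM in DMSO and 1.04 and 0.966 RPKM with SGC-CBP30, and at 1.42 and 1.5 RPKM in DMSO and 0.659 and 0.744 RPKM with CPI203. The groups did not overlap in either experiment. With CPI203 the log2 fold change was -0.96 (limma adjusted p = 0.00178). With SGC-CBP30 it was -0.71 (limma adjusted p = 0.0184), and the call ended without DMSO replicate 1 (-0.53, adjusted p = 0.125), without SGC-CBP30 replicate 1 (-0.75, adjusted p = 0.0605) and without SGC-CBP30 replicate 2 (-0.66, adjusted p = 0.0986). A pseudocount of 1 ended both calls, at -0.43 and -0.53, and all 4 DMSO libraries as controls that with SGC-CBP30 (-0.61, limma adjusted p = 0.0601). Like XAF1, it passed the filter on low values through its controls.

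The start regions of these members are shown as the genes called lower with both compounds, with a response element core in DTX3L and EPSTI1 and none in XAF1. Each line gives 260 bases from RefSeq on build GRCh38.p14, from 250 bases before the annotated start to the tenth base of the transcript, 5′ to 3′ on the strand of the gene. Capitals mark the searched cores. For the interferon-stimulated response element these are GAAA and GAAA with any 2 bases between them, or TTTC and TTTC where the other strand holds it. For the gamma-activated site, the element of the response to interferon gamma, they are TTC and GAA with any 3 bases between them, which reads the same on both strands.
DTX3L chr3:122564088-122564347 (+): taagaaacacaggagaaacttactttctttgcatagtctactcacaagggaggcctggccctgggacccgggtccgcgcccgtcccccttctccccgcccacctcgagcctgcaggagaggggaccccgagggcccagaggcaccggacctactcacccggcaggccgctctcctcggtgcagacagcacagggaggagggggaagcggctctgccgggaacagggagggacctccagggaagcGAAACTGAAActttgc
EPSTI1 chr13:42992232-42992491 (-): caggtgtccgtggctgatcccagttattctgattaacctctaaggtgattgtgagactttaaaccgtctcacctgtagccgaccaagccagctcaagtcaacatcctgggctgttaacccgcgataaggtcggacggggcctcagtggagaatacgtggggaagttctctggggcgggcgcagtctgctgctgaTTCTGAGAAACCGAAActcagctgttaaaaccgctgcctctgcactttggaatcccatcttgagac
XAF1 chr17:6755197-6755456 (+): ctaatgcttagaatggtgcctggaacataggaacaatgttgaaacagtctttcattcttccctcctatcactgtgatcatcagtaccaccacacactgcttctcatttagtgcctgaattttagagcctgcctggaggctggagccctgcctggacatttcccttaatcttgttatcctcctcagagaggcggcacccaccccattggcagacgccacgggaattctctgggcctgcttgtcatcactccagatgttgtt
XAF1 chr17:6755796-6756055 (+): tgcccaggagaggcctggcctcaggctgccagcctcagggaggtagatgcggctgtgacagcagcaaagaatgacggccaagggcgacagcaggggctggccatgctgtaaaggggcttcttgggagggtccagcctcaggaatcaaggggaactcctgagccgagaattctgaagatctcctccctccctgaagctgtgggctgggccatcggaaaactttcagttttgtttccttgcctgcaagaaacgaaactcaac
In DTX3L 1 response element core began at base 245 of the window and ran over the annotated start. In EPSTI1 the core began at base 201, and a gamma-activated site core began at base 195 and shared bases with it. Neither XAF1 window held either core, which says only that these letters are not in these windows.

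Over all members, 41 of the 50 had an entry in the RefSeq start table (DDX58 under its newer symbol RIGI). Within 250 bases before to 50 after a start, 28 of the 41 (68.3%) held a response element core, compared with 4.38% of 27305 genes of the table with an entry. Of 35116 windows of this length over all genes 3.57% held it, and of 56 windows of members 57.1%. The gamma-activated site core was found in 10 of the 41 members (24.4%) and in 9.38% of all genes. Among the members, 15 of 18 under 1 RPKM held the response element core and 13 of 23 tested ones. Of the 13 tested members with a core, 4 were called lower with SGC-CBP30, 5 lower with CPI203 and 1 higher, and of the 10 without, 2, 4 and 1. The core-holding members called with either compound were DTX3L, EPSTI1, PARP14, HERC5, PARP12, IFIH1, EIF2AK2 and IFI6, while STAT2, XAF1, OAS1, SP110, SP100 and SAMD9L had none in their windows. PML had no entry.

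**Figure D3:**
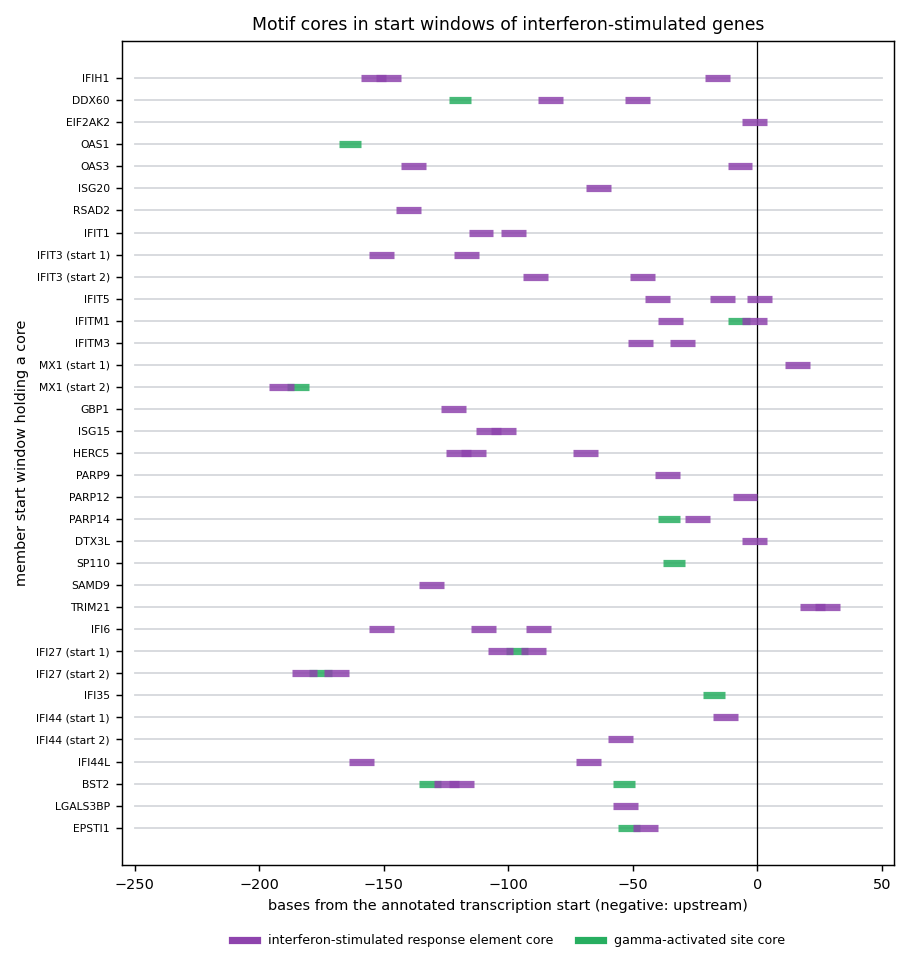
Positions of response element cores (purple) and gamma-activated site cores (green) in the start windows of the members that hold at least 1, on an axis of bases from the annotated transcription start, negative upstream. Cores lie after the start in TRIM21 and in a window of MX1. DTX3L, EIF2AK2, IFIT5 and IFITM1 hold a response element core that runs over the start, and that of PARP12 ends next to it.

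PARP14, OAS1 and HERC5 were called with SGC-CBP30 and not with CPI203, each against the DMSO pair of its own experiment. PARP14, a mono-ADP-ribosyltransferase at chr3:122399465-122449687 of hg19 and 105414 bases from DTX3L, was at 8.21 and 7.57 RPKM in DMSO and at 3.51 and 3.57 RPKM with SGC-CBP30. In the CPI203 experiment it was at 3.58 and 3.6 RPKM in DMSO and 3.22 and 3.76 RPKM with the compound. The DMSO libraries of that experiment thus stood at the level reached with SGC-CBP30 in the first, and with CPI203 the groups overlapped. On the log2 scale PARP14 changed by -1.13 (SE 0.105, limma adjusted p = 5.4e-05) with SGC-CBP30 and by -0.04 (adjusted p = 0.736) with CPI203. The effects differed by -1.09 (95% interval -1.42 to -0.76, limma adjusted p = 2.32e-04). Against the DMSO pair of the other experiment the SGC-CBP30 value was -0.02, and against all 4 DMSO libraries -0.57. The CPI203 value against the other pair was -1.16 (limma adjusted p = 5.17e-06), a call, so the size of these changes rests on the choice of controls.

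HERC5, the ubiquitin-like ligase that attaches ISG15 to new proteins, also differed between the DMSO pairs. Its DMSO levels were 6.90 and 6.69 RPKM, its SGC-CBP30 levels 4.13 and 4.01 RPKM, and in the other experiment DMSO gave 3.18 and 3.06 RPKM and CPI203 3.79 and 3.51 RPKM. All 4 pairs were apart, with the CPI203 pair above its controls. HERC5 had log2 fold changes of -0.73 (limma adjusted p = 3.75e-04) with SGC-CBP30 and 0.22 (adjusted p = 0.0652) with CPI203, a difference of -0.95 (limma adjusted p = 2.86e-04). Against the other DMSO pair the SGC-CBP30 value was 0.37, a change of sign, and against all 4 it was -0.18. OAS1, which makes the oligoadenylates that activate RNase L, was at 4.01 and 4.69 RPKM in DMSO and 2.43 and 2.15 RPKM with SGC-CBP30. In the second experiment it was at 2.64 and 3.73 RPKM in DMSO and 2.33 and 2.36 RPKM with CPI203. OAS1 thus changed by -0.89 (limma adjusted p = 0.00259) and -0.41 (adjusted p = 0.0546) on the log2 scale, and the difference of -0.49 did not pass the test (95% interval -1.01 to 0.04, limma adjusted p = 0.113). Against the other DMSO pair the SGC-CBP30 value of OAS1 was -0.44 and against all 4 DMSO libraries -0.67, and neither was called. The CPI203 value of OAS1 was -0.65 without DMSO replicate 1 of that experiment (limma adjusted p = 0.00678, a call) and -0.17 without DMSO replicate 2. It was also called against all 4 DMSO libraries (-0.63, limma adjusted p = 0.0303) and against the other pair (-0.86).

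Members called lower with CPI203 alone were PARP12, SP110, SAMD9L, IFIH1, EIF2AK2 and SP100. PARP12, a mono-ADP-ribosyltransferase like PARP14, was at 17.8 and 17.0 RPKM in DMSO and 8.50 and 9.06 RPKM with CPI203, and at 23.2 and 22.4 RPKM in DMSO and 21.8 and 20.0 RPKM with SGC-CBP30. This was a log2 fold change of -0.98 (SE 0.0646, limma adjusted p = 9.2e-07) for CPI203 and -0.13 (adjusted p = 0.149) for SGC-CBP30, and the effects differed by 0.85 (limma adjusted p = 5.15e-05). Of these related enzymes, each against its own DMSO pair, PARP12 was the one called with CPI203 and PARP14 the one called with SGC-CBP30. Against the DMSO pair of the other experiment PARP14 was called with CPI203 (-1.16, limma adjusted p = 5.17e-06) and not with SGC-CBP30 (-0.02).

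The nuclear body proteins did not move together. SP110 was at 8.03 and 8.08 RPKM in DMSO and 4.32 and 4.14 RPKM with CPI203 (log2 fold change -0.91, limma adjusted p = 6.88e-06), and at 11.1 and 10.0 RPKM in DMSO and 9.84 and 10.7 RPKM with SGC-CBP30, where the groups overlapped. Its annotated span overlaps that of SP140 (mean 0.473 RPKM), and reads of the overlap cannot be told apart without strand. SP100, the scaffold that shares these bodies with PML, was at 14.7 and 14.0 RPKM in DMSO and 10.1 and 8.96 RPKM with CPI203. With SGC-CBP30 it went the other way, from 13.0 and 13.6 RPKM to 16.6 and 16.8 RPKM. The log2 fold change was -0.59 (limma adjusted p = 4.79e-05) with CPI203 and 0.32 (adjusted p = 0.00571) with SGC-CBP30, so the first lay close to the 1.5-fold limit and fell under it without DMSO replicate 1 (-0.55) or CPI203 replicate 2 (-0.51) of its experiment. PML, the organiser of the bodies, passed the test with SGC-CBP30 alone, at 19.4 and 20.2 RPKM in DMSO and 16.1 and 17.0 RPKM with the compound, under 1.5-fold.

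SAMD9L and SAMD9 are neighbouring paralogs, 12031 bases apart on chromosome 7, that restrict poxviruses. SAMD9L was at 48.3 and 51.4 RPKM in DMSO and 27 and 27.6 RPKM with CPI203, and at 38.1 and 33.1 RPKM in DMSO and 25.1 and 27.7 RPKM with SGC-CBP30. Both treated pairs lay under their controls, with a log2 fold change of -0.87 (limma adjusted p = 4.55e-06) for CPI203 and -0.43 (adjusted p = 0.00169, not called) for SGC-CBP30. SAMD9 was between 9 and 11 RPKM in all 8 libraries, with log2 fold changes of 0.08 and 0.04 that did not pass the test. Reads common to the paralogs could have been divided between them by the authors' counting.

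Of the RNA sensors among the members, IFIH1 alone reached 1 RPKM. It recognises long double-stranded RNA and was at 5.12 and 5.39 RPKM in DMSO and 3.30 and 3.23 RPKM with CPI203 (log2 fold change -0.67, limma adjusted p = 1.21e-04), and at 4.40 and 4.39 RPKM in DMSO and 4.89 and 4.67 RPKM with SGC-CBP30 (0.12, adjusted p = 0.33). DDX58, which encodes RIG-I, stayed between 0.22 and 0.44 RPKM. DHX58, a sensor on the list of signalling genes, had a mean of 1.38 RPKM over the 8 libraries and was called with neither compound. Its log2 fold change was -0.58 with SGC-CBP30 (limma adjusted p = 0.0401), close under the 1.5-fold limit, and -0.20 with CPI203 (adjusted p = 0.401). In DMSO it was at 2.07 and 2.16 RPKM beside SGC-CBP30 and 0.916 and 1.25 RPKM beside CPI203. This difference was called (-0.91, limma adjusted p = 0.00485). With SGC-CBP30 DHX58 was at 1.49 and 1.28 RPKM, above the other DMSO pair, so its change rests on the choice of controls. EIF2AK2, the kinase that halts translation when it binds double-stranded RNA, was at 18.1 and 19.9 RPKM in DMSO and 11.6 and 12.4 RPKM with CPI203 (log2 fold change -0.66, limma adjusted p = 3.57e-05). With SGC-CBP30 it was at 16.2 and 18.2 RPKM, around its controls of 18.0 and 17.2 RPKM. ADAR, the other double-stranded RNA binder, passed the test with CPI203 under 1.5-fold, from 172 and 174 RPKM in DMSO to 126 and 132 RPKM (-0.42, limma adjusted p = 4.09e-06). Measured against the DMSO pair beside SGC-CBP30, the CPI203 values fell under 1.5-fold for SP100 (-0.48), SAMD9L (-0.38), IFIH1 (-0.42) and EIF2AK2 (-0.55), and SGC-CBP30 against the other pair gave -0.92 for SAMD9L, which was then called. Against all 4 DMSO libraries the CPI203 values of SP100 and IFIH1 were both -0.54, also under 1.5-fold. With a pseudocount of 1 the CPI203 values of IFIH1 and SP100 were both -0.55, also under the limit.

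**Figure D4:**
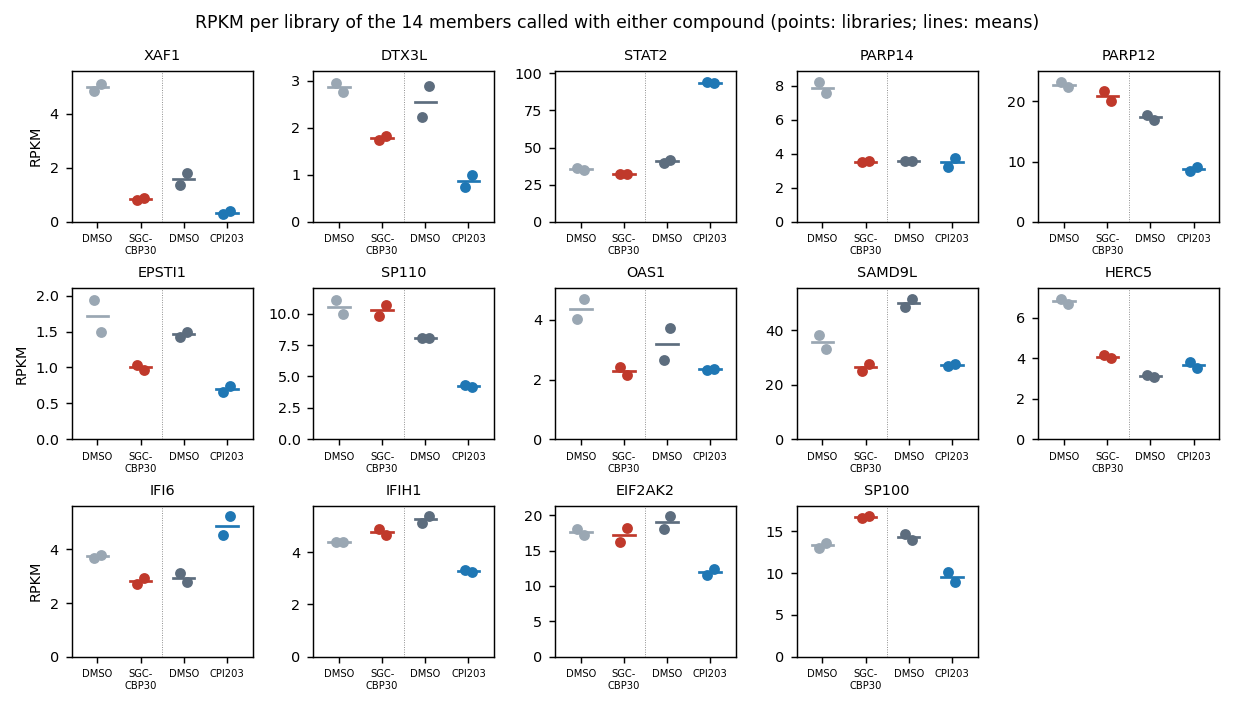
RPKM in each library (points) and group means (lines) of the 14 members called with either compound, with the SGC-CBP30 experiment left of the dotted line and the CPI203 experiment right of it, each panel on its own axis from 0. XAF1, DTX3L and EPSTI1 drop in both experiments, and STAT2 and IFI6 rise with CPI203. The DMSO pairs of XAF1, PARP14 and HERC5 stand furthest apart, and those of other members, such as SAMD9L and PARP12, also do not overlap.

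STAT2 and IFI6 were called higher with CPI203. STAT2, the member that carries the interferon signal itself, lies at chr12:56735381-56753939 of hg19 and was at 39.9 and 41.5 RPKM in DMSO and 93.9 and 93.6 RPKM with CPI203, 2.3 times the control mean. With SGC-CBP30 it was at 31.9 and 32.0 RPKM against 36.5 and 35.2 RPKM in DMSO. No group overlapped its controls, and the directions were opposite. The log2 fold change was 1.20 (SE 0.0407, limma adjusted p = 1.8e-08) with CPI203 and -0.17 (adjusted p = 0.0101) with SGC-CBP30, a difference of -1.37 (95% interval -1.50 to -1.24, limma adjusted p = 2.83e-07). IFI6, a membrane protein that limits virus replication at the endoplasmic reticulum, was at 3.10 and 2.78 RPKM in DMSO and 4.53 and 5.22 RPKM with CPI203. In the SGC-CBP30 experiment it was at 3.68 and 3.78 RPKM in DMSO and 2.70 and 2.93 RPKM with the compound. Its log2 fold change was 0.71 (limma adjusted p = 4.43e-04) with CPI203 and -0.40 (adjusted p = 0.0232) with SGC-CBP30, and these differed by -1.10 (limma adjusted p = 4.23e-04). With a pseudocount of 1 the CPI203 value of IFI6 was 0.57, against all 4 DMSO libraries 0.54 and against the other DMSO pair 0.37, all under 1.5-fold, while STAT2 was called in every alternative run.

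The other tested members changed by less than 1.5-fold or did not pass the test against their own DMSO pair. BST2 was at 91.1 and 94.5 RPKM in DMSO and 66.7 and 70.2 RPKM with SGC-CBP30 (log2 fold change -0.44, limma adjusted p = 3.56e-05), and at 99.9 and 98.6 RPKM in DMSO and 89.7 and 90.8 RPKM with CPI203 (-0.14, adjusted p = 0.00994). ISG20, an RNA exonuclease, changed by -0.45 with SGC-CBP30 and -0.58 with CPI203 (log2) and passed the adjusted p threshold in both. The CPI203 value lay at the 1.5-fold limit and was called after median scaling and quantile normalization (both -0.59), without DMSO replicate 2 (-0.59) or CPI203 replicate 2 (-0.66) of its experiment, with all 4 DMSO libraries (-0.72) and against the other pair (-0.85). UBE2L6, the conjugating enzyme for ISG15, had -0.30 and -0.47 and likewise passed in both, and with CPI203 it was called against all 4 DMSO libraries (-0.69, limma adjusted p = 0.00443) and against the other pair (-0.90). IFI35 passed with SGC-CBP30 alone (-0.33, limma adjusted p = 0.00229). TRIM25 passed with CPI203 alone, at 0.25, and TRIM21, a cytosolic antibody receptor, was higher with both, at 0.21 and 0.41. ISG15 itself was at 0.98 and 1.57 RPKM in DMSO and 0.785 and 0.841 RPKM with SGC-CBP30. In the CPI203 experiment it was at 1.26 and 1.01 RPKM in DMSO and 0.54 and 1.37 RPKM with the compound. Its replicates spread most in the DMSO pair beside SGC-CBP30 and in the CPI203 pair. Neither log2 fold change passed (-0.56, limma adjusted p = 0.26 and -0.34, adjusted p = 0.447), and the second was 0.26 without CPI203 replicate 1 and -0.94 without CPI203 replicate 2 (limma adjusted p = 0.0312, a call).

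The response differed between the compounds, at an adjusted p under 0.05, for 15 of the 24 members, where 50.3% of all genes tested differed. In 8 of them the SGC-CBP30 value was the higher (29.3% of all genes) and in 7 the lower (21.0%). The doses were 2.5 μM and 0.25 μM, so the values describe these doses. PARP14, STAT2 and IFI6 differed by at least 1 on the log2 scale, with the SGC-CBP30 value lower in all 3. For PARP14 the treated means were alike, at 3.54 RPKM with SGC-CBP30 and 3.49 RPKM with CPI203. Its DMSO means were 7.89 and 3.59 RPKM, so its difference rests on the DMSO pairs. For XAF1 the difference of -0.48 did not pass the test (95% interval -1.11 to 0.15, limma adjusted p = 0.184), and neither did that of EPSTI1 (0.26, interval -0.37 to 0.89, adjusted p = 0.474). DTX3L fell further with CPI203, by 0.80 (interval 0.22 to 1.38, limma adjusted p = 0.0276).

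The DMSO pairs of the experiments were also compared, since both treated the same cell line with solvent for 6 hr. In this comparison 3 of 24 members were called, with 7.84% of all genes tested called, and all 3 (XAF1, PARP14 and HERC5) were lower in the pair beside CPI203, where 3.91% of all genes were and 3.93% were higher. None was called higher by limma, nor at an unadjusted p under 0.05 with the same fold. The log2 difference was -1.59 for XAF1 (limma adjusted p = 2.64e-04), -1.11 for PARP14 (adjusted p = 4.9e-05) and -1.10 for HERC5 (adjusted p = 2.77e-05), and without a minimum fold 15 members passed (41.7% of all genes), 12 lower (21.5%) and 3 higher (20.3%). The median over the 24 was -0.19, beside 0.01 over all genes. This comparison shares control libraries with both compound comparisons, so the values stand side by side and are not independent of them: all 3 members were also called lower with SGC-CBP30. MX1, a dynamin-like GTPase that traps viral nucleocapsids, was under the tested level but showed the same order, at 1.39 and 1.46 RPKM in DMSO and 0.428 and 0.30 RPKM with SGC-CBP30, and 0.35 and 0.323 RPKM in DMSO and 0.162 and 0.372 RPKM with CPI203. GBP2, another GTPase, had the opposite order, at no more than 0.085 RPKM in the 4 libraries of the SGC-CBP30 experiment and 0.901 to 1.31 RPKM in the 4 of the CPI203 experiment. The T cell markers CD3D, CD3E and CD2 moved in that order too, with sums of 0.0338 to 0.089 RPKM in the SGC-CBP30 experiment and 0.83 to 1.12 RPKM in the other. CD3D was listed at 0 in all 4 libraries of the first. Their part in the differences between the DMSO pairs was not tested.

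Of the 26 members under 1 RPKM, which were not tested, OAS2, IFIT3, MX1, IFI27 and GBP2 exceeded 1 RPKM in at least 1 library. OAS2 was at 1.21 and 1.62 RPKM in DMSO and 0.741 and 0.918 RPKM with SGC-CBP30, and at 0.839 and 1.01 RPKM in DMSO and 0.396 and 0.537 RPKM with CPI203, below its controls in both experiments. IFIT3 was at 0.958 and 0.741 RPKM in DMSO and 0.528 and 0.478 RPKM with SGC-CBP30, and at 0.768 and 1.15 RPKM in DMSO and 0.188 and 0.164 RPKM with CPI203. Its annotated span lies across LIPA, with a mean of 32.5 RPKM, and reads of the overlap cannot be told apart without strand. GBP1 was at 0.235 and 0.371 RPKM in DMSO and 0.726 and 0.728 RPKM with SGC-CBP30, and between 0.58 and 0.705 RPKM throughout the CPI203 experiment. IFIT5 was at 0.588 and 0.743 RPKM in DMSO and 0.268 and 0.161 RPKM with CPI203. LGALS3BP, a secreted glycoprotein, was between 0.0369 and 0.101 RPKM in DMSO and between 0.224 and 0.324 RPKM with both compounds. IFI27 was between 0.377 and 1.11 RPKM. USP18, which removes ISG15 from proteins, HERC6, IFI44, DDX60, TRIM22, OASL and CMPK2 reached at most 0.324 RPKM in any library. The IFITM family, MX2 and IFI44L reached at most 0.458 RPKM and each was listed at or near 0 in at least 1 library.

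Around the members, 42 further genes of interferon signalling had a row and 26 were tested. None of the 10 interferon genes reached 1 RPKM. With SGC-CBP30, IKBKE, IRF2 and PTPN6 were called lower and 0 were called higher by limma, also at an unadjusted p under 0.05 with the same fold. The 3 called make 11.5% of the 26, where 3.79% of all genes tested were called lower and 7.26% in either direction. The median log2 fold change of the 26 was -0.04, beside 0.07 over all genes. Leaving out DMSO replicate 1 or SGC-CBP30 replicate 1 raised the number called with SGC-CBP30 from 3 to 5. With CPI203, 7 were called higher (26.9%, beside 13.4% of all genes tested) and 6 lower (23.1%, beside 14.4%), with a median of -0.11, beside -0.01 over all genes. The receptor chains IFNAR1 and IFNAR2 were between 36.7 and 45.5 RPKM in all 8 libraries, and neither was called, nor was TYK2, with log2 fold changes of 0.13 and 0.21.

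IRF9, which joins STAT2 in ISGF3, was at 6.18 and 5.51 RPKM in DMSO and 16.0 and 16.4 RPKM with CPI203 (log2 fold change 1.46, limma adjusted p = 4.35e-07), and at 6.14 and 5.5 RPKM in DMSO and 7.16 and 7.24 RPKM with SGC-CBP30 (0.30, adjusted p = 0.0185). JAK1 rose from 16.9 and 17.9 RPKM to 31.4 and 30.7 RPKM with CPI203 (0.83, limma adjusted p = 1.08e-06), and JAK2 had a log2 fold change of 0.82. Of the receptor chains IFNGR1 rose by 1.00 and IL10RB by 0.80 on the log2 scale with CPI203, and PIAS1, an inhibitor of STAT signalling, by 0.68. All of these passed the test with CPI203 at an adjusted p under 0.05. With SGC-CBP30 IFNGR1 changed by 0.48 (limma adjusted p = 0.00123), under 1.5-fold. JAK1 (-0.13), JAK2 (0.06), IL10RB (0.07) and PIAS1 (0.01) did not pass the test with that compound.

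IRF7, the factor that amplifies interferon gene transcription, was at 4.40 and 3.28 RPKM in DMSO and 20.6 and 22.2 RPKM with CPI203 (2.46, limma adjusted p = 5.31e-07), and IRF8 fell from 1.92 and 1.78 RPKM to 0.343 and 0.247 RPKM (-2.31, adjusted p = 3.61e-06). IRF8 thus passed the filter on low values through the other groups. With SGC-CBP30 neither gene passed the test (0.18 for IRF7 and -0.45 for IRF8). IRF2, which competes at response elements, was at 39.1 and 38.4 RPKM in DMSO and 18.5 and 18.3 RPKM with SGC-CBP30 (-1.07, limma adjusted p = 1.48e-06). With CPI203 it also fell, from 23.8 and 25.5 RPKM to 16.8 and 17.8 RPKM (-0.51, limma adjusted p = 2.43e-05), under 1.5-fold. IKBKE, a kinase that activates interferon regulatory factors, fell with both compounds, from 29.4 and 31.6 RPKM to 13.8 and 11.8 RPKM with SGC-CBP30 (-1.25, limma adjusted p = 4.69e-06) and from 17.7 and 17.4 RPKM to 7.02 and 7.10 RPKM with CPI203 (-1.30, adjusted p = 4.91e-07). The phosphatase gene PTPN6 also fell with both compounds, by 1.23 and 1.27 on the log2 scale. It went from 4.33 and 5.61 RPKM to 2.47 and 1.70 RPKM with SGC-CBP30. With CPI203 it went from 1.32 and 1.72 RPKM to 0.725 and 0.434 RPKM, and like IRF8 it passed the filter through the other groups. Of the sensors and adaptors, MYD88 (-0.93), MB21D1, which encodes the DNA sensor cGAS (-0.89), and TMEM173, which encodes STING (-0.73), were called lower with CPI203. With SGC-CBP30 TMEM173 (-0.55, limma adjusted p = 0.00564) and MB21D1 (-0.29, adjusted p = 0.00481) were also lower, under 1.5-fold. MYD88 did not pass the test with that compound (0.08). Between the DMSO pairs 4 of the 26 signalling genes were called (15.4%), beside 7.84% of all genes tested. These were IKBKE, IRF2, PTPN6 and DHX58, all lower in the pair beside CPI203, where 3.91% of all genes were. Against all 4 DMSO libraries none of the 3 calls with SGC-CBP30 was kept.

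**Figure D5:**
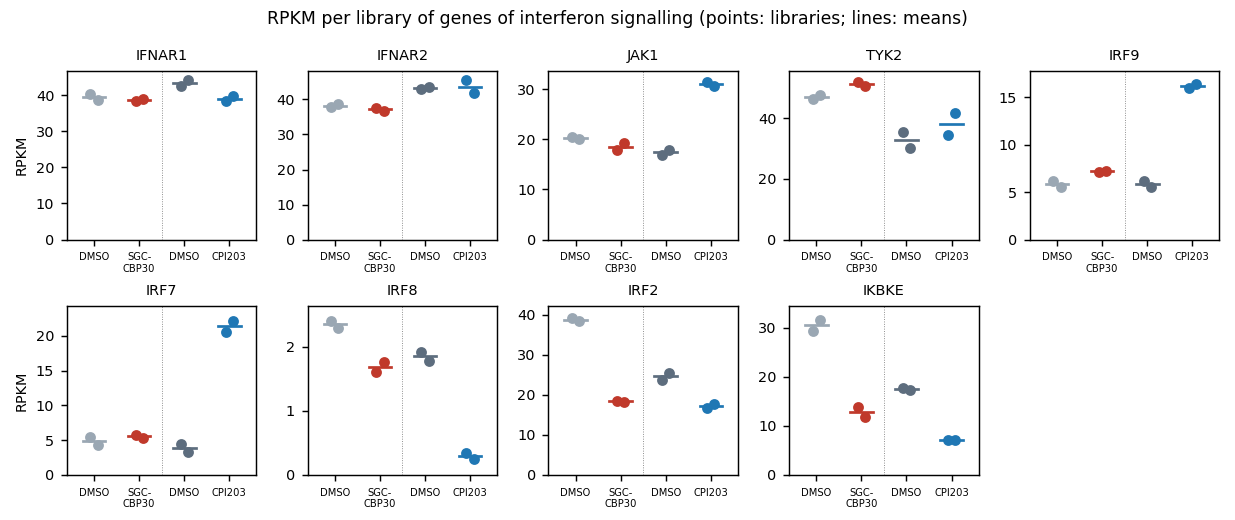
RPKM in each library (points) and group means (lines) of 9 genes of interferon signalling, with the SGC-CBP30 experiment left of the dotted line and the CPI203 experiment right of it, each panel on its own axis from 0. IRF9, IRF7 and JAK1 stand higher with CPI203, IKBKE is lower with both compounds, and IFNAR1 and IFNAR2 stay near their controls.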

How the data were processed

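RNA-seq was measured in 8 LP-1 libraries, 2 in each of 4 groups. The authors deposited 1 RPKM value per gene and library, made by their sequencing provider. Per the submitters' processing notes, TopHat 1.4.1, Cufflinks and hg19 were used, and the annotation release and strand setting are not given in the sources used here. Gene positions come from the deposited annotation, whose starts count from 0 and were raised by 1. The deposited table holds 24 further columns of other libraries, which were not used. Genes with a missing value (27) were dropped, and limma 3.58.1 in R 4.3.3 was fitted to the 4 group means of log2(RPKM + 0.1) for the 14732 genes whose mean reached 1 RPKM, with an intensity trend, 4 residual and 5.5 prior degrees of freedom, and no further scaling. The contrasts were each compound against its DMSO, the difference of these effects, and the DMSO pairs against each other. The fit was tested on simulated data with 200 changed genes. Depth came from single-exon genes under 0.5 RPKM, of whose values 58.6% to 71.1% were whole reads within 0.1 read, so it is an estimate.

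The members and lists were chosen with earlier results of these data known. Every tested member was named. Per-library values were given for members called with either compound or differing between compounds by at least 1 on the log2 scale. Of the signalling genes the named ones were IFNAR1, IFNAR2, JAK1, TYK2, IRF9 and all that were called with either compound. DHX58 was named in addition. A further gene of the signalling list is not reported here. Windows around annotated starts came from RefSeq (GRCh38.p14) and were searched on both strands with Python 3.11.15, pandas 2.3.3 and numpy 2.4.6, and figures were drawn with matplotlib 3.10.9. Each alternative changed 1 choice: the pseudocount (1), the filter (5 RPKM or none), the scaling (median or quantile), the controls, a replicate block, separate fits, no trend, other fold limits or a library left out.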

Additional observations from a re-analysis of the deposited data

How the results depend on the processing

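The number of members called was 6 with SGC-CBP30, 11 with CPI203, 15 for the difference between the compounds and 3 between the DMSO pairs, and of the signalling genes 3 and 13 were called. Among genes of at least 5 RPKM the member counts were 0 (of 15 members in that fit), 6 and, for the DMSO pairs, 0. With a pseudocount of 1 the CPI203 count was 7. Without the filter the DMSO pairs gave 7. With all 4 DMSO libraries as controls SGC-CBP30 gave 1 member, SAMD9L, which was not among the 6, and 0 signalling genes, and with the DMSO pair of the other experiment, an alternative chosen after seeing the data, 2 and 1. At 2-fold the counts were 2 and 3 members and 5 signalling genes with CPI203. Without a minimum fold they were 17, 17 and 15 members for SGC-CBP30, CPI203 and the DMSO pairs, and 12 signalling genes with SGC-CBP30. Median scaling and quantile normalization gave 6 signalling genes with SGC-CBP30. Leaving out each library in turn gave 4 to 6 and 11 to 12 members with the compounds, 14 to 16 for their difference, 3 to 4 between the DMSO pairs, and 3 to 5 and 12 to 15 signalling genes.

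With the replicate number as a block the counts were 6, 11, 15, 3, 3 and 13, and none of the 48 member calls with the compounds changed. For the other comparisons only the counts were compared. Replicate differences of a compound and its DMSO correlated at -0.172 and -0.039 over 8298 genes. These values show no positive replicate effect in common, but they cannot show that the samples were unpaired. The paper describes its DMSO controls as paired, and the labels give only the replicate number.

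Of 846 log2 fold changes of single members recomputed, 774 kept direction and call and 23 changed sign. With SGC-CBP30 and all 4 DMSO libraries IFIH1 was at -0.01, PARP12 at 0.07 and SP110 at 0.16. Against the other DMSO pair IFIH1 was at -0.13, UBE2L6 0.13, HERC5 0.37, PARP12 0.26, PML 0.12, SP110 0.35, SAMD9 -0.05 and IFI35 0.06. SAMD9 was at -0.01 after quantile normalization. Leaving out libraries gave -0.12 to 0.04 for EIF2AK2, -0.11 to 0.04 for SP110 (0.03 without SGC-CBP30 replicate 1) and -0.02 to 0.18 for SAMD9. With CPI203 and all 4 DMSO libraries HERC5 was at -0.33 and PML at -0.08, and against the other pair at -0.88 and -0.26. Leaving out libraries gave -0.94 to 0.26 for ISG15, -0.15 to 0.06 for PARP14 and -0.06 to 0.13 for SAMD9. The cause of these changes was not tested. Members near 1 RPKM rest on fewer reads per kilobase than higher ones, and a part of depth in these changes was not tested.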
